A study of Mus musculus with 9 samples.

Results

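The 7 genes described here, Cd4, Cd8a, Cd8b1, Zbtb7b, Runx3, Runx1 and Tox, encode the coreceptors of T cells and transcription factors of the choice between the CD4 and the CD8 lineage. They were found by their symbols in a table of FPKM values (fragment counts scaled to transcript length and sequencing depth) with 20926 genes, and all 7 were above the expression limit of the test, which 12366 genes passed. The study asked how irradiation with 0.1 THz waves acts in collagen-induced arthritis (CIA), an autoimmune arthritis of mice. There were 3 groups of male DBA/1 mice, an inbred strain prone to this arthritis, that were 7 weeks old at the start. Ctrl mice were controls without the arthritis model, CIA mice were immunised with chick type II collagen in Freund's adjuvants, and CIA+THz mice had the same immunisation and then an irradiation of the ankles for 30 min a day over 14 days. Isoflurane anaesthesia is described for the irradiation, and a sham exposure of the other groups is not stated in the sources used here, so anaesthesia, handling and THz waves cannot be told apart. RNA of 3 mice per group was sequenced, out of 60 mice in the study, which gave 9 libraries. The samples are labelled as blood leukocytes, while the protocol describes total RNA of blood, and Alas2, a heme synthesis gene of red cell precursors, held 11.4% to 16.7% of the summed FPKM of a library.

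CD4 and CD8 are the coreceptors that bind MHC class II and class I beside the T cell receptor. In the thymus a cell with both coreceptors keeps one of them: ThPOK, the product of Zbtb7b, holds the CD4 lineage, and RUNX3 holds the CD8 lineage by silencing Cd4 and Zbtb7b. RUNX1 silences Cd4 before that choice and works in many other blood cells, and TOX is needed for CD4 lineage cells to form. In mature blood the coreceptor genes are used mainly by T cells, although dendritic cells can carry either of them, while RUNX factors are also used by NK cells, basophils and platelet precursors. In bulk RNA, fewer cells of a type and less RNA per cell cannot be told apart.

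In the mm10 build (GRCm38, GENCODE annotation) the coreceptor genes lie on chromosome 6. Cd4 spans chr6:124864692-124888221 on the minus strand. Cd8b1 spans chr6:71322788-71337494 and Cd8a chr6:71373427-71379173, both on the plus strand, with 35932 bases between the end of Cd8b1 and the start of Cd8a. Zbtb7b spans chr3:89377644-89394776 on the minus strand, Runx3 chr4:135120652-135177990 on the plus strand, Runx1 chr16:92601466-92826149 on the minus strand and Tox chr4:6686353-6991557 on the minus strand. RefSeq promoter windows of the same build, of 250 bases before and 50 bases after a transcript start, were at hand for 4 of the 7 genes (Cd8a, Zbtb7b, Runx3 and Runx1). They were searched on both strands for the RUNX motif (TGTGGT), the motif of GATA factors (AGATAA) and the E-box of E proteins such as TCF12 (CAGCTG). The motifs do not overlap each other. Of 32851 promoter windows of this length, 16.8% held the RUNX motif, 11.2% the GATA motif and 16.3% the E-box. The sites found are shown because these genes are targets and members of the same circuit, each 5′ to 3′ on the strand of its gene with the motif, or its reverse complement, in capitals. A second copy within the Runx3 and Runx1 stretches is left in lower case.
Cd8a E-box site: cagctctgtctgCAGCTGgctaaaggagca
Zbtb7b RUNX site: ctggcgaggaacTGTGGTatgtgagtgggt
Runx3 RUNX site: tctggtccctcaACCACAgaaccacaaggc
Runx1 RUNX site: acctcataaacaACCACAgaaccacaagtt
The Cd8a site lies at chr6:71373413-71373442, and its motif begins 2 bases before the transcript start. The Zbtb7b site lies at chr3:89387743-89387772, outside annotated exons, and its motif begins 89 bases before the start of the inner one of 2 promoters. The Runx3 site lies at chr4:135120499-135120528, with the motif 134 bases before the start of the outer promoter and a second copy 126 bases before it, both outside annotated exons. The Runx1 site lies at chr16:92826029-92826058 in the first exon of the outer promoter's transcript, with the motif 28 bases after the start and a second copy 36 bases after it. The GATA motif was in none of the 7 windows of these 4 genes, which says only that these letters are not there. A match is a description of the letters and no measurement of binding.

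Levels below are rescaled FPKM, that is, FPKM divided by 1 factor per library that brings the libraries to a common median level (factors 0.847 to 1.24). Differences are on the log2(rescaled FPKM + 0.1) scale, which understates the change of low genes, with the standard error (SE) and two-sided p-values of limma, a linear model fitted across all tested genes, and the Benjamini-Hochberg adjusted p over those genes. The criteria were chosen after those of the study. A gene was called across the 3 groups at an unadjusted p under 0.05, and between a pair of groups at an unadjusted p under 0.05 with an absolute log2 difference above 0.67. The depth of the libraries is unknown from the files. Between 11801 and 12807 genes were above 0 per library, and Ptprc, the pan-leukocyte gene for CD45, was above 0 in all 9. Its level was 149.7, 140.6 and 92.7 in Ctrl, 70.8, 66.8 and 140.8 in CIA and 138.5, 136.2 and 142.9 in CIA+THz, so CIA replicates 1 and 2 were the lowest libraries and CIA replicate 3 was not low. The part of Ptprc's low level there in the lower values of CIA below was not tested. On the deposited FPKM, the median difference of the tested genes was 0.29 (log2) in CIA+THz against CIA and 0.33 in CIA+THz against Ctrl. The rescaling moved these comparisons by -0.28 and -0.31, and the differences below are relative to that shift.

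The clearest pattern among the 7 genes was a lower Cd8a and Runx1 level in the blood of CIA mice, with Cd8a in CIA+THz mice at the level of Ctrl mice. Neither holds after adjustment over all genes. Across the 3 groups, 2 of the 7 genes passed the unadjusted limit, Cd8a and Runx1, beside 21.3% of all tested genes, and none had an adjusted p under 0.05. In CIA against Ctrl, 1 of 7 was called, Runx1, as lower, beside 9.04% of all genes, and 2 of 7 had an unadjusted p under 0.05, beside 17.3%. In CIA+THz against CIA, none of the 7 was called, beside 4.54%, and Cd8a alone had an unadjusted p under 0.05, beside 13.2%. In CIA+THz against Ctrl, none was called, beside 7.88%, and none had an unadjusted p under 0.05, beside 18.1%. The groups did not overlap for 2 genes in CIA against Ctrl (23.5% of all genes), for 1 in CIA+THz against CIA (19.6%) and for 2 in CIA+THz against Ctrl (24.0%). These shares of 7 genes are too coarse to set the genes apart from the background. The median difference of the 7 was -0.28 in CIA against Ctrl and 0.47 in CIA+THz against CIA, with CIA as the shared group, beside -0.01 and 0.03 over all tested genes.

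Among the coreceptors, Cd8a, the alpha chain that all CD8 molecules contain, moved most evenly. Its level was 21.2, 20.0 and 21.1 in the Ctrl libraries, 17.2, 11.7 and 14.8 in the CIA libraries and 22.2, 23.1 and 17.4 in the CIA+THz libraries. All 3 CIA libraries were below every other library, and the CIA+THz libraries lay on both sides of the narrow Ctrl range. The means were 20.8 ± 0.659, 14.5 ± 2.76 and 20.9 ± 3.06 (SD, n = 3 each). CIA against Ctrl gave a log2 difference of -0.53 (SE 0.17, 95% interval -0.92 to -0.14, limma adjusted p = 0.191). CIA+THz against CIA gave 0.53 (SE 0.18, 95% interval 0.10 to 0.96, limma adjusted p = 0.304), and CIA+THz against Ctrl gave 0.00 (95% interval -0.32 to 0.32). Both differences from CIA passed the unadjusted limit but stayed below the fold limit. In CIA against Ctrl the unadjusted limit was passed in all 6 fits without a library (-0.66 to -0.38), while in CIA+THz against CIA it was missed without CIA replicate 2 (0.38), CIA+THz replicate 1 (0.48) or CIA+THz replicate 2 (0.45). Across the 3 groups Cd8a passed the unadjusted limit as well (limma adjusted p = 0.133), and it no longer did without CIA replicate 2, the lowest library. With FPKM as deposited, Cd8a was called in CIA+THz against CIA, at 0.81.

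Cd8b1, the beta chain that forms the CD8 coreceptor of conventional T cells together with the alpha chain, followed Cd8a only loosely. Its level was 23.6, 33.8 and 31.7 in Ctrl, 23.1, 19.1 and 32.0 in CIA and 41.8, 31.2 and 28.7 in CIA+THz. The groups overlapped, since CIA replicate 3 was as high as the Ctrl libraries. The means were 29.7 ± 5.39, 24.7 ± 6.64 and 33.9 ± 7.00 (SD, n = 3 each). The log2 difference was -0.28 in CIA against Ctrl (95% interval -0.81 to 0.25, limma adjusted p = 0.566) and 0.47 in CIA+THz against CIA (-0.07 to 1.00, adjusted p = 0.422), neither past the unadjusted limit. Across the 3 groups Cd8b1 missed that limit, and it passed without CIA replicate 3. With FPKM as deposited it was called in CIA+THz against CIA, at 0.74.

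Cd4, the coreceptor of helper T cells, was at 40.7, 58.0 and 60.0 in Ctrl, 55.8, 46.1 and 38.4 in CIA and 57.3, 58.0 and 45.3 in CIA+THz. Each group held both a high and a low library, and the groups overlapped fully. The means were 52.9 ± 10.6, 46.8 ± 8.68 and 53.5 ± 7.15 (SD, n = 3 each). No comparison passed: the log2 difference was -0.17 in CIA against Ctrl (95% interval -0.64 to 0.30), 0.20 in CIA+THz against CIA (-0.19 to 0.60) and 0.03 in CIA+THz against Ctrl (-0.39 to 0.44). These intervals include differences as large as those of Cd8a, so Cd4 is not shown to have moved less than Cd8a.

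**Figure D1:**
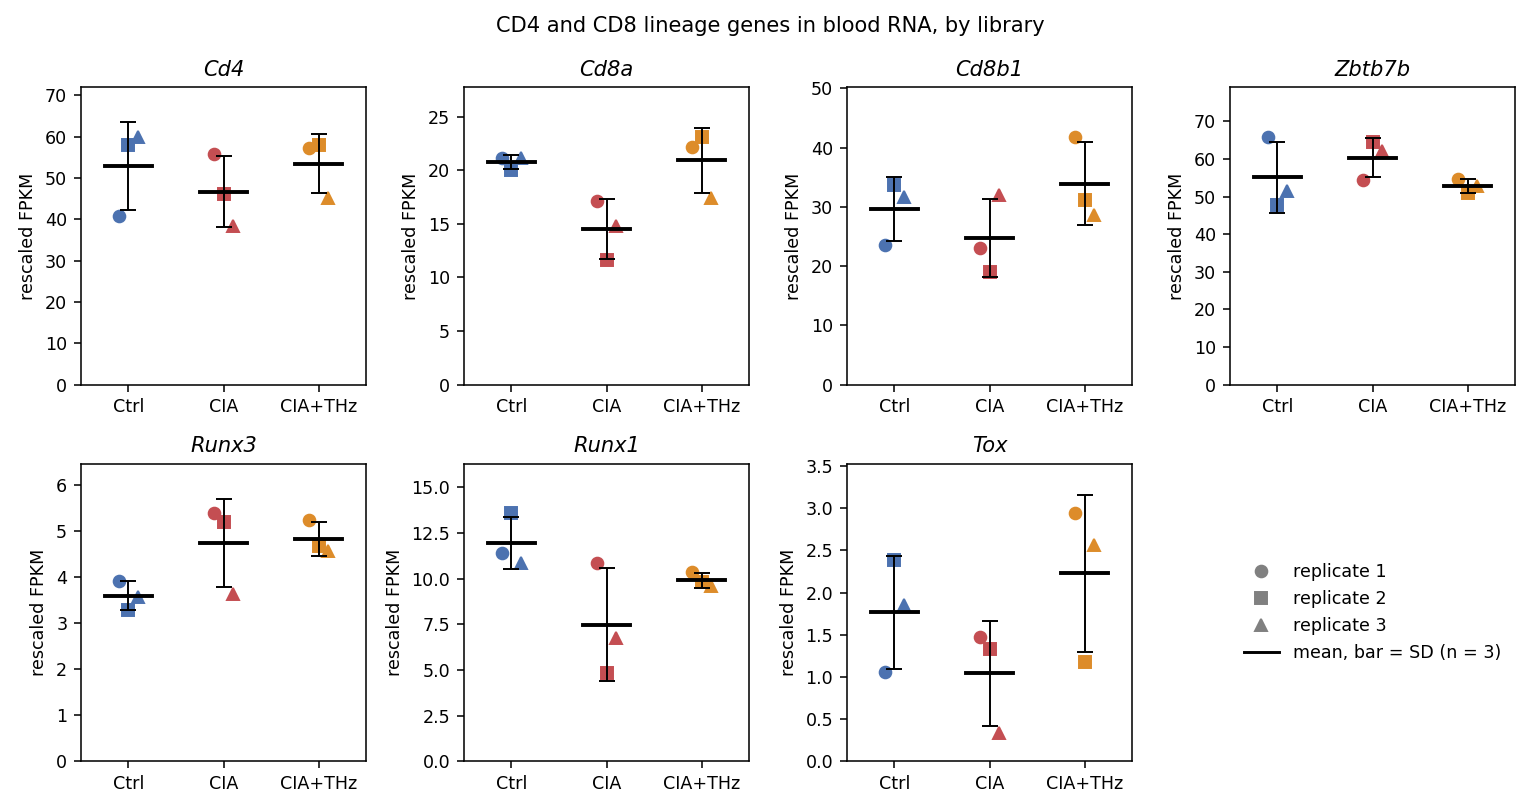
Rescaled FPKM of the 7 genes in each library (y axis, starting at 0), with Ctrl in blue, CIA in red and CIA+THz in orange, a marker shape for each replicate, and the mean with its SD as a line and bar (n = 3). For Cd8a the 3 CIA points, from 11.7 to 17.2, lie below all other points, while the groups overlap for Cd4, Cd8b1, Zbtb7b and Tox.

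Of the transcription factors, Zbtb7b, which encodes ThPOK, was at 65.9, 47.8 and 51.6 in Ctrl, 54.5, 64.6 and 62.0 in CIA and 54.7, 50.9 and 52.9 in CIA+THz. It was the member with the highest mean over all libraries, 56.1, and the groups overlapped in each comparison. The log2 difference was 0.14 in CIA against Ctrl (95% interval -0.21 to 0.49, limma adjusted p = 0.660), -0.19 in CIA+THz against CIA (-0.42 to 0.04, adjusted p = 0.445) and -0.05 in CIA+THz against Ctrl (-0.36 to 0.27). With FPKM as deposited, Zbtb7b stood 0.09 higher in CIA+THz than CIA and 0.26 higher than Ctrl, so its direction depended on the scaling.

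Runx3, the factor of CD8 T cells and also of NK cells, was at 3.91, 3.29 and 3.57 in Ctrl, 5.38, 5.18 and 3.64 in CIA and 5.24, 4.68 and 4.56 in CIA+THz. All 3 CIA+THz libraries were above all Ctrl libraries, and CIA replicate 3 was within the Ctrl range. The means were 3.59 ± 0.311, 4.73 ± 0.954 and 4.82 ± 0.366 (SD, n = 3 each). No comparison passed the criterion: the log2 difference was 0.37 in CIA against Ctrl (95% interval -0.19 to 0.94, limma adjusted p = 0.465), 0.05 in CIA+THz against CIA (-0.44 to 0.53) and 0.42 in CIA+THz against Ctrl (-0.01 to 0.85, adjusted p = 0.289). The last was called with FPKM as deposited, at 0.72. Runx3 and Cd8a thus stood in opposite order in CIA and Ctrl, although the groups overlapped for Runx3.

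Runx1, which encodes the RUNX factor of early thymocytes and of blood stem cells, was at 11.4, 13.6 and 10.85 in Ctrl, 10.85, 4.82 and 6.75 in CIA and 10.3, 9.78 and 9.57 in CIA+THz. The CIA libraries were widely spread, and CIA replicate 1 was level with Ctrl replicate 3, so that the groups only just failed to overlap. CIA replicate 2 had the lowest Runx1 level and CIA replicate 1 the highest of its group. The means were 11.9 ± 1.43, 7.47 ± 3.08 and 9.89 ± 0.393 (SD, n = 3 each). Runx1 fell in CIA against Ctrl by the unadjusted criterion, with a log2 difference of -0.74 (SE 0.29, 95% interval -1.43 to -0.05, limma adjusted p = 0.263). The call was lost on leaving out any 1 of the 3 Ctrl libraries, CIA replicate 2 or CIA replicate 3, with differences from -0.47 (without CIA replicate 2) to -0.80 (without Ctrl replicate 3). Without CIA replicate 1 it was kept, at -1.04. The pass across the 3 groups was kept in only 1 of 9 fits without a library, the one without CIA replicate 1. The call in CIA against Ctrl was also lost with a pseudocount of 1 (-0.67) and after a correction for GC content (-0.65), in both by the fold limit alone, and without the variance trend by the unadjusted limit. The log2 difference was 0.48 in CIA+THz against CIA (95% interval -0.19 to 1.15, limma adjusted p = 0.510) and -0.26 in CIA+THz against Ctrl (-0.59 to 0.06, adjusted p = 0.362), neither past the unadjusted limit. The first was called with FPKM as deposited, at 0.75, and without CIA replicate 1, at 0.78. Against Ctrl, all 3 CIA+THz libraries were below all Ctrl libraries, and the sign of that difference turned with FPKM as deposited (0.04).

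Tox, an HMG-box factor of developing CD4 T cells and of exhausted T cells, was the member with the lowest level. It was at 1.06, 2.38 and 1.85 in Ctrl, 1.47, 1.33 and 0.331 in CIA and 2.94, 1.18 and 2.57 in CIA+THz. Every group overlapped with every other, and CIA replicate 3 was the lowest library. The differences were large but had wide errors, at -0.84 in CIA against Ctrl (95% interval -2.24 to 0.56, limma adjusted p = 0.504) and 1.14 in CIA+THz against CIA (-0.28 to 2.56, adjusted p = 0.459). Tox was called in the latter with FPKM as deposited, at 1.40.

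**Figure D2:**
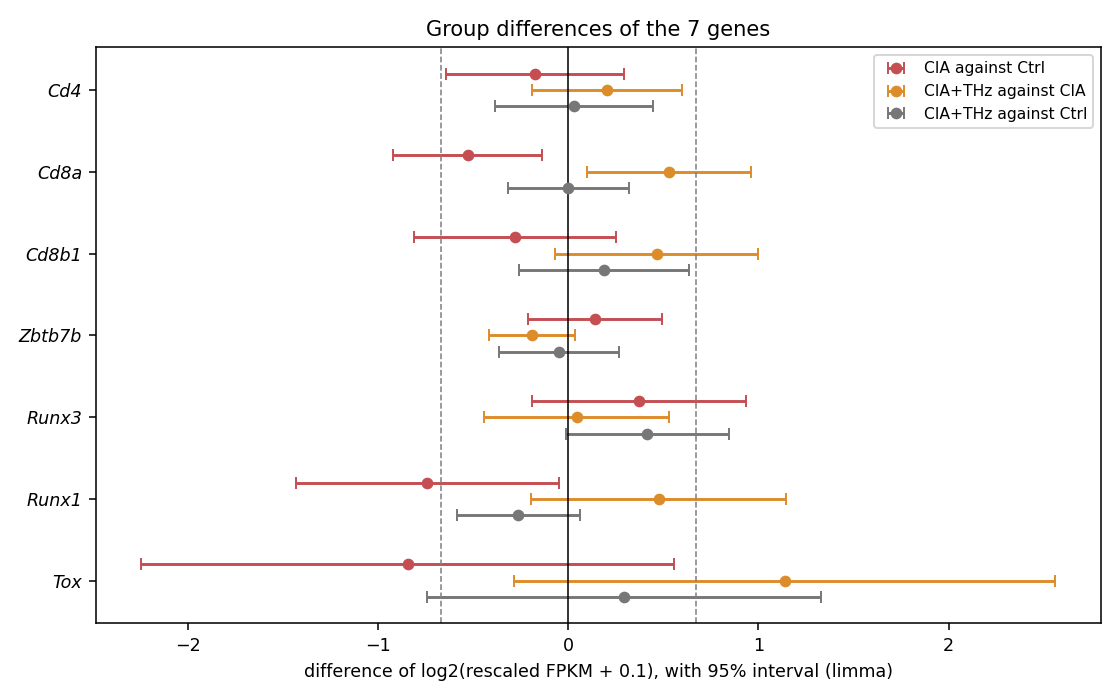
Differences between groups on the log2(rescaled FPKM + 0.1) scale (x axis) for each of the 7 genes (y axis), with points for the limma estimate, bars for its 95% interval and dashed lines at the fold limit of 0.67. Only 3 intervals leave out 0, those of Cd8a against CIA in both directions (-0.53 and 0.53) and of Runx1 in CIA against Ctrl (-0.74), and the interval of Tox is the widest.

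A ratio of 2 genes within a library depends little on the library's scaling, only through the constant of 0.1 that was added to both after rescaling. Such ratios were compared by an exact permutation test, which for 3 against 3 libraries cannot give a two-sided p below 0.1. The log2 ratio of Cd4 to Cd8a was 0.94, 1.53 and 1.50 in Ctrl, 1.70, 1.97 and 1.37 in CIA and 1.36, 1.32 and 1.37 in CIA+THz. Ratios of 2 CIA libraries were above all the others and the third was not, and the CIA+THz libraries were close together. The group means corresponded to 2.51, 3.21 and 2.55 FPKM of Cd4 for each FPKM of Cd8a. The log2 difference was 0.36 in CIA against Ctrl (exact permutation p = 0.3) and -0.33 in CIA+THz against CIA (exact permutation p = 0.2). The SDs were 0.33 for Ctrl, 0.30 for CIA and 0.03 for CIA+THz, and in both comparisons the groups overlapped.

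Between the 2 chains of CD8, the log2 ratio of Cd8b1 to Cd8a averaged 0.50 ± 0.31 for Ctrl, 0.75 ± 0.34 for CIA and 0.69 ± 0.24 for CIA+THz (SD, n = 3 each). The differences of 0.25, -0.06 and 0.19 (CIA against Ctrl, CIA+THz against CIA, CIA+THz against Ctrl) were each smaller than the SDs of the groups compared, with exact permutation p-values of 0.5, 1.0 and 0.5. The log2 ratio of Zbtb7b to Runx3, the pair of opposed lineage factors, was 4.04, 3.82 and 3.82 in Ctrl, 3.32, 3.61 and 4.06 in CIA and 3.36, 3.42 and 3.51 in CIA+THz. It was lower in all 3 CIA+THz libraries than in any Ctrl library, by 0.46 on average (exact permutation p = 0.1, the smallest this design allows). The CIA libraries covered the whole span of the other groups.

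Relative to T cell RNA, taken as the mean log2 level of Cd3d, Cd3e and Cd3g, the genes of the CD3 chains of the T cell receptor, Cd4 kept the steadiest place. Its log2 ratio to this mean averaged 0.75 ± 0.18 for Ctrl, 0.81 ± 0.14 for CIA and 0.77 ± 0.12 for CIA+THz (SD, n = 3 each), and the 3 differences lay between -0.04 and 0.07 (exact permutation p from 0.7 to 0.9). The ratio of Cd8a averaged -0.58 ± 0.25, -0.87 ± 0.27 and -0.58 ± 0.14. The CIA libraries differed from Ctrl by -0.29, with overlap (exact permutation p = 0.3), and the CIA+THz libraries from CIA by 0.29, without overlap (exact permutation p = 0.1). The latter groups only just failed to overlap, with CIA+THz replicate 1 at -0.682 and CIA replicate 3 at -0.692. Relative to CD3, the difference of Cd8a was thus smaller than the -0.53 and 0.53 of its level. Ratios of the other members to CD3 were added to the planned ones of Cd4 and Cd8a, and other settings were not run for them. The ratio of Runx3 was higher in all CIA libraries than in any Ctrl library, by 0.61 (exact permutation p = 0.1), and in all CIA+THz libraries than in any Ctrl library, by 0.41 (exact permutation p = 0.1). The level of Runx3 itself differed by 0.37 in CIA against Ctrl, with overlap. A share of all genes without overlap was not computed for such ratios. For Runx1 the ratio differed by -0.50 in CIA against Ctrl, with overlap (exact permutation p = 0.3). The ratios of Cd8b1, Zbtb7b and Tox differed by -0.04, 0.38 and -0.61 in CIA against Ctrl, all with overlap. In CIA+THz against CIA they differed by 0.23, -0.43 and 0.90, also with overlap. Of the CD3 genes, Cd3e had a log2 difference of -0.25 in CIA against Ctrl (limma adjusted p = 0.303) and 0.32 in CIA+THz against CIA (adjusted p = 0.319), and the latter passed the unadjusted limit. Cd3d and Cd3g differed by -0.11 and -0.35 in CIA against Ctrl, and by 0.05 and 0.35 in CIA+THz against CIA, none past the unadjusted limit. The differences of Cd3d were within their SE, while those of Cd3g were larger than theirs (SE 0.20 and 0.16).

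**Figure D3:**
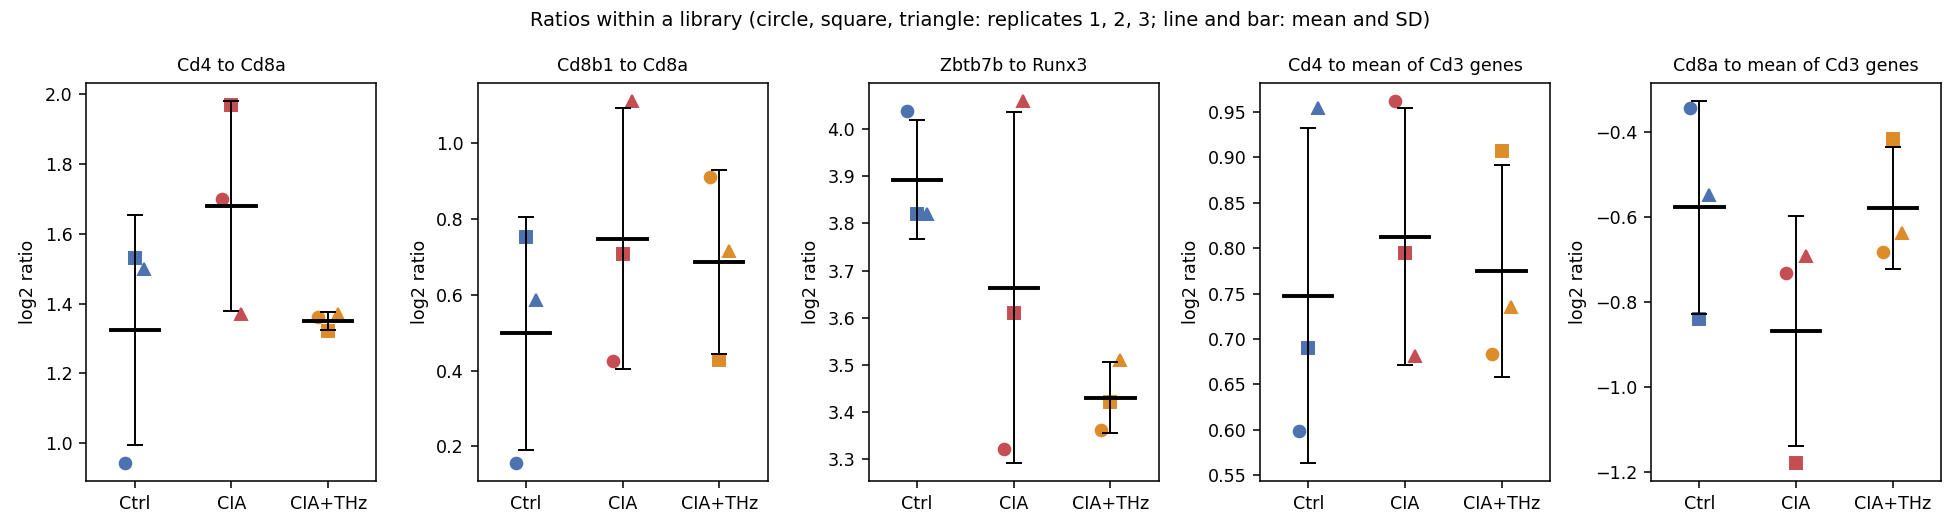
Log2 ratios of pairs of genes within each library (y axis, with its own range in each panel), by group, with a marker shape for each replicate and the mean and SD as line and bar (n = 3). The ratio of Cd4 to Cd8a reaches 1.97 in CIA and is tightly grouped near 1.35 in CIA+THz, and the ratio of Zbtb7b to Runx3 is below the Ctrl range in all CIA+THz libraries.

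Markers of other cells moved beside these genes. The summed rescaled FPKM of 12 measured T cell genes was 406 to 472 in Ctrl, 345 to 379 in CIA and 414 to 559 in CIA+THz, so the T cell sum, too, was lowest in all 3 CIA libraries. Of these 12 genes, 11 were lower in CIA than in Ctrl (median log2 difference -0.28, none called) and 12 of 12 stood higher after irradiation than in untreated CIA (median 0.30, 1 called). NK cells, which use Runx3 and Runx1, had a marker sum of 161 to 202 in Ctrl, 60.6 to 125 in CIA and 108 to 159 in CIA+THz. All 8 NK genes were lower in CIA than in Ctrl (median log2 difference -0.98, 6 called). In CIA+THz against CIA all 8 were higher (median 0.57, 2 called). Dendritic cells, which can carry Cd8a or Cd4, had a sum of 8.15 to 11.6 in Ctrl, 12.9 to 16.0 in CIA and 9.15 to 12.96 in CIA+THz. Its genes moved both ways in CIA against Ctrl, 5 higher and 2 lower of 7 tested (median log2 difference 0.81). Of these, 1 was called higher and 1 lower. In CIA+THz against CIA, 1 of the 7 was higher and 6 were lower (median log2 difference -0.39, none called). In this list 4 of the 8 genes (Siglech, Zbtb46, Batf3 and Clec10a) were at 0 in at least 1 library. Platelet genes, whose precursors use Runx1, summed to 4772 to 5911 in Ctrl, 4479 to 5687 in CIA and 3797 to 4543 in CIA+THz. The erythroid sum of 7 measured genes, most of it from Alas2, was 72600 to 109800, 91320 to 102100 and 49350 to 68750. The neutrophil sum was 12380 to 20910, 14230 to 18400 and 10530 to 11980. Both sums were lowest in CIA+THz. Of the 7 erythroid genes, 6 were lower and 1 higher in CIA than in Ctrl (median log2 difference -0.49, 1 called). In CIA+THz against CIA, 6 were again lower and 1 higher (median -0.19, none called). The B cell sum was 410 to 504, 477 to 602 and 551 to 712, and the monocyte sum was 559 to 592, 807 to 921 and 682 to 727. The part of these sums in the differences of the 7 genes was not tested.

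The wider circuit was followed in a list of 28 partner genes of the fate decision: factors upstream of Zbtb7b (Gata3, Myb, Tcf3, Tcf12, Tcf7, Lef1, Satb1, Bcl11b), RUNX partners (Cbfb, Runx2), IL-7 receptor signalling, which drives Runx3 (Il7r, Jak1, Jak3, Stat5a, Stat5b, Socs1), chromatin and zinc finger factors, Tox relatives and Lck, the kinase bound to both coreceptors. In CIA against Ctrl, 20 of the 28 were lower and 8 higher (median log2 difference -0.25), and 6 lower and 2 higher ones had an unadjusted p under 0.05 in limma, 28.6% of the list beside 17.3% of all tested genes. CIA+THz libraries had higher means than CIA for 18 and lower ones for 10 (median 0.25), and 10 had an unadjusted p under 0.05, all of them higher: Il7r, Tcf12, Tcf7, Lef1, Satb1, Bcl11b, Ets1, Ikzf1, Lck and Id2. That was 35.7% of the list, beside 13.2% of all tested genes. The list itself was chosen with earlier results of these data known, so the larger share is no independent support. Both comparisons share the CIA libraries. Lck is also in the T cell list, and most of these genes are used strongly by T cells. Across the 3 groups, 10 of the 28 partners had an unadjusted p under 0.05, 35.7% beside 21.3% of all tested genes. An adjusted p under 0.05 in limma was reached there by 3 partners, Il7r (0.0100), Satb1 (0.0333) and Tcf12 (0.0466), beside 313 of 12366 tested genes. Il7r and Tcf12 missed this adjusted limit without the variance trend and after the GC correction. Tcf12 also missed it in each fit without a library. With the fold limit, 3 of 28 partners were called in CIA against Ctrl (Il7r and Tcf12 lower, Socs1 higher; 9.04% of all genes), 1 in CIA+THz against CIA (Tcf12 higher; 4.54%) and 2 in CIA+THz against Ctrl (Socs1 higher, Tox2 lower; 7.88%), all near the shares over all genes. With FPKM as deposited, 9 partners were called in CIA+THz against CIA, all higher, with 26 of 28 differences above 0, and 4 in CIA+THz against Ctrl, all higher. Of all 12394 genes tested in that setting, 1199 and 1720 were called in these comparisons. Differences were above 0 for 79.1% and 77.4% of all genes, so most genes shared that direction. After the GC correction no partner was called in CIA against Ctrl or CIA+THz against CIA, but Il7r (-0.59) and Tcf12 (-0.57 and 0.65) kept their direction and the unadjusted limit and fell only under the fold limit.

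Il7r, the alpha chain of the IL-7 receptor that keeps naive T cells alive, changed most clearly. Its level was 57.5, 63.8 and 57.8 in Ctrl, 31.0, 33.5 and 33.4 in CIA and 54.3, 53.1 and 48.1 in CIA+THz. The 3 groups did not overlap, and CIA was the lowest by far. Il7r fell in CIA against Ctrl, with a log2 difference of -0.87 (SE 0.11, limma adjusted p = 0.0461). The unadjusted criterion was met in all 6 fits without a library (-0.90 to -0.82), but the adjusted limit was missed in each. That adjusted limit was also missed with FPKM as deposited, without the variance trend, with the replicate number as a block and after the GC correction. In CIA+THz, Il7r stood 0.67 above CIA, just under the fold limit (SE 0.09, adjusted p = 0.172). This difference passed the fold limit without CIA replicate 2 or 3 or CIA+THz replicate 3, at 0.68 to 0.72. Tcf12, the E protein HEB, fell in CIA against Ctrl (20.1, 21.8 and 22.0 against 15.3, 10.2 and 13.5), with a log2 difference of -0.73 (SE 0.17, limma adjusted p = 0.119). It was at 19.4, 23.3 and 21.3 in CIA+THz, 0.73 above CIA (SE 0.17, limma adjusted p = 0.213). This order of the groups, with CIA alone apart, is also that of Cd8a. Neither call of Tcf12 was kept without CIA replicate 2 (-0.56 and 0.56), and the second was lost without CIA+THz replicate 2 as well (0.66).

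Socs1, an inhibitor of JAK and STAT signalling that limits IL-7 responses, rose in CIA against Ctrl by the unadjusted criterion. Its level was 1.05, 2.33 and 1.77 in Ctrl, 3.49, 4.03 and 2.90 in CIA and 3.49, 2.33 and 3.78 in CIA+THz. CIA lay wholly above Ctrl, and CIA+THz overlapped with both. The log2 difference was 1.03 in CIA against Ctrl (SE 0.35, limma adjusted p = 0.213) and 0.90 in CIA+THz against Ctrl (SE 0.36, adjusted p = 0.247). The second was also lost with a pseudocount of 1 (0.64) and after the GC correction (0.79), and the first after the GC correction (0.80). On leaving out libraries, the first was lost without Ctrl replicate 1, CIA replicate 1 or CIA replicate 2 (0.73 to 1.02), and the second without Ctrl replicate 1 or 3 or CIA+THz replicate 1 or 3 (0.60 to 0.95). Tox2, a relative of Tox, was at most 0.456 and listed at 0 in 2 CIA+THz libraries, so its call (limma adjusted p = 0.271) rests on values near 0. It was lost without any 1 of Ctrl replicates 1 and 2 or CIA+THz replicates 2 and 3, and with a pseudocount of 1 (-0.32).

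**Figure D4:**
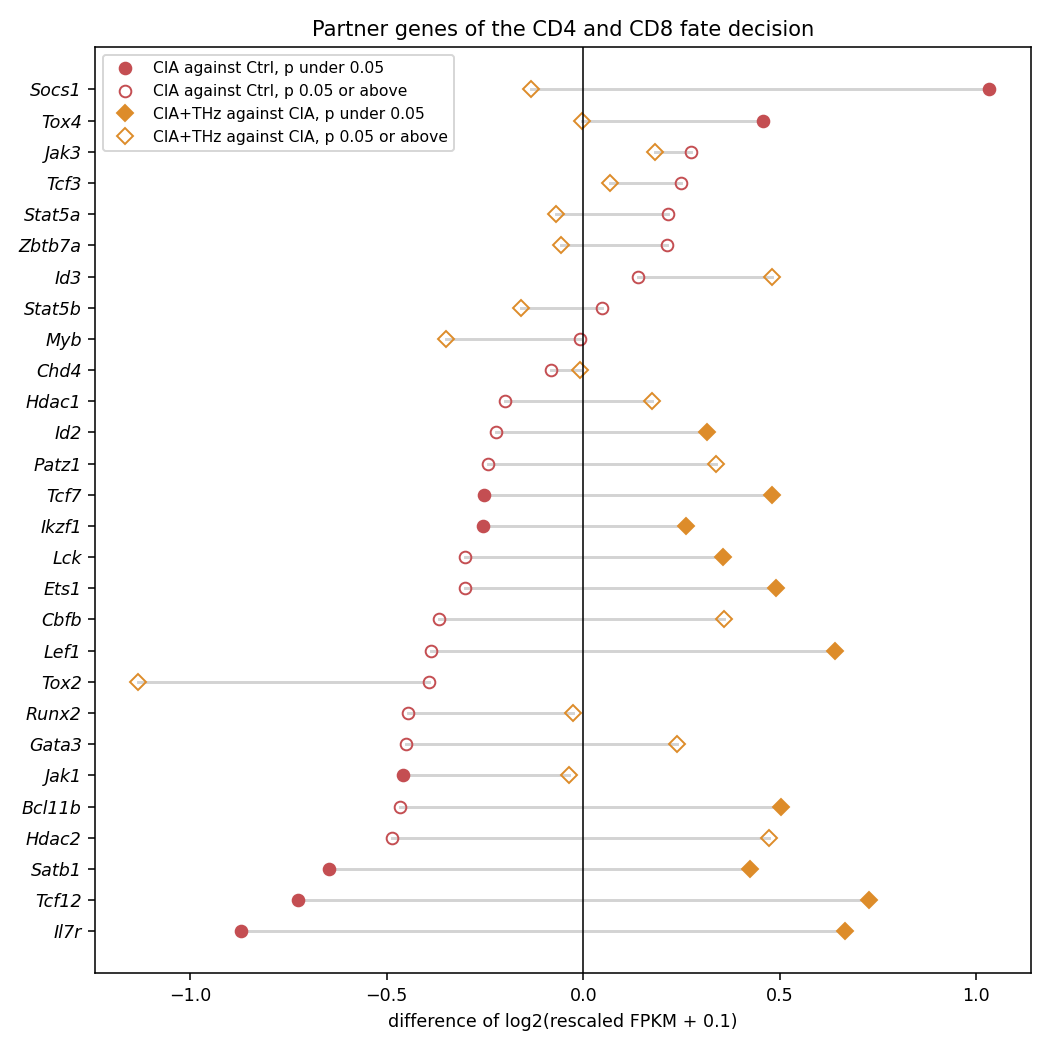
Log2 differences (x axis) of the 28 partner genes (y axis, sorted by CIA against Ctrl), with circles for CIA against Ctrl and diamonds for CIA+THz against CIA, filled where the unadjusted limma p was under 0.05. Filled diamonds, 10 in number, are all on the right of 0, and 20 circles are on the left; the CIA libraries enter both comparisons.

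On this scale per length, the order of the mean levels over all 9 libraries was Zbtb7b (56.1), Cd4 (51.1), Cd8b1 (29.4), Cd8a (18.7), Runx1 (9.77), Runx3 (4.38) and Tox (1.68). Zbtb7b and Cd4 did not differ beyond their spread, since Zbtb7b was above Cd4 in only 4 of 9 libraries. Each of Cd4, Cd8b1, Cd8a and Runx3 was above the next gene of this order in 9 of 9 libraries, and Runx1 was above Runx3 in 8 of 9, the exception being CIA replicate 2. Among 12366 tested genes, Zbtb7b ranked 1133 by its mean and Tox 8795.

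The genes with the profile nearest to a member were sought among 6160 genes with a mean of at least 5, by the root mean square difference of the centred log2 levels over the 9 libraries. Nearest to Cd4 were Cd3d (0.103), which encodes the CD3 delta chain, Polr2m (0.109) and Tubb5 (0.114). Nearest to Cd8a were Dhx36 (0.069), which encodes a helicase of G-quadruplexes, Ppp2r2a (0.114) and Ppp1r16b (0.116), the latter pair encoding phosphatase subunits. Nearest to Runx1 were Mtap (0.138), Ms4a2 (0.141), the gene of the beta chain of the IgE receptor of basophils and mast cells, and Cdk13 (0.159). Between members, Cd8a was nearer to Runx1 (0.230) than to Cd4 (0.266) or Cd8b1 (0.268). Among the 6160 genes, however, Runx1 ranked only 249 in nearness to Cd8a, Cd4 587 and Cd8b1 609. All these profiles share the same 9 libraries, and the values describe likeness only.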

How the data were processed

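Total RNA of blood was sequenced by the study in 9 libraries (3 Ctrl, 3 CIA, 3 CIA+THz; TruSeq kit, paired ends). The authors deposited 1 table of FPKM values per gene. The submitters' processing notes name HISAT2, StringTie, DESeq2, bcl2fastq 2.0 and mm10; their roles, and whether the counting used strand, are not given in the sources used here. No step of single reads was seen in low values, so depth is unknown and no count test was run. Libraries were rescaled by median-of-ratios factors over 10312 genes above 0 in all 9. Genes with a mean of at least 0.1 were tested on log2(value + 0.1) with limma 3.58.1 in R 4.3.3 (eBayes with trend), in 6 libraries per pair of groups and in all 9 for the F-test. Ratios were compared by exact permutation. The script was tested on simulated data.

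The members and gene lists were chosen with earlier results of these data known. Named are all members, each partner past the criterion between a pair of groups, the CD3 genes, and the 3 nearest profiles of Cd4, Cd8a and Runx1. Partners named only in a count were chosen after their values were seen. Replicates are different mice, and groups share no mice. The GC correction and the wider T cell reference were chosen after seeing the data. Of the tested genes, 98.6% had a GC value, all 7 members included.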

Additional observations from a re-analysis of the deposited data

How the results depend on the processing

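At an unadjusted p under 0.05, with the fold limit for pairs, 2629 genes were called across the 3 groups, and the pairs CIA and Ctrl, CIA+THz and CIA, and CIA+THz and Ctrl gave 1118, 561 and 975; at an adjusted p under 0.05 in limma these were 313, 19, 0 and 13 (at an unadjusted p under 0.05 without the fold limit, CIA+THz and CIA gave 1634). With FPKM as deposited, CIA+THz against CIA gave 1199 calls (1133 higher, 66 lower, beside 363 and 198) and CIA+THz against Ctrl 1720 (1600 higher, 120 lower, beside 574 and 401), where all 7 members were higher in both and 4 and 1 of them were called. Of all 12394 genes tested in that setting, 79.1% and 77.4% were higher. The sign turned there for Zbtb7b against CIA (0.0876) and against Ctrl (0.259), and in CIA+THz for Runx1 (0.0414) and Il7r (0.102) against Ctrl and Socs1 (0.137) against CIA. With a pseudocount of 1, CIA+THz against CIA gave 283 calls. The GC correction turned Cd4 in CIA+THz against Ctrl (-0.024) and Zbtb7b in CIA against Ctrl (-0.0957), and the wider T cell reference turned the ratio of Cd4 in CIA+THz against Ctrl (-0.00704). Leaving out 1 library at a time gave 724 to 1487 calls in CIA+THz against Ctrl (the highest without Ctrl replicate 3), and differences from -0.149 to 0.145 for Cd4, -0.077 to 0.126 for Cd8a, -0.143 to 0.0874 for Zbtb7b, -0.0143 to 0.679 for Tox and -0.0639 to 0.0658 for Tcf12 there. In CIA+THz against CIA they ran from -0.13 to 0.146 for Runx3 and -0.263 to 0.0748 for Socs1. Ratios ran from -0.163 to 0.131 (Cd4 to Cd8a, CIA+THz against Ctrl), -0.224 to 0.119 (Cd8b1 to Cd8a, CIA+THz against CIA) and -0.133 to 0.116 (Cd8a to CD3, CIA+THz against Ctrl), and Cd4 to CD3 from -0.00957 to 0.168, -0.104 to 0.037 and -0.0467 to 0.131 in the 3 comparisons. The cause of these turns was not tested. Same-numbered libraries are different mice, and their deviations correlated between -0.0517 and 0.0309, so the numbers do not pair them; with the replicate number as a block, calls were 2399, 1073, 506 and 967, and Runx1 lost its call in CIA against Ctrl, as did Socs1 and Tox2 in CIA+THz against Ctrl. The other settings kept the direction of each member. A single fit of all 9 libraries does not apply to the F-test. Depth is unknown, and 3 libraries per group limit the precision.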
